A study of Rattus norvegicus with 12 samples.

Results

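The genes described here encode the proteins of the cytosolic ribosome. They were taken as every probe set of the value table that the platform annotation gives exactly 1 symbol, that symbol being Rpl or Rps followed by a digit, or Rplp0, Rplp1, Rplp2 or Rpsa, with ribosomal protein kinases of the Rps6k family and pseudogene symbols left out. The rule found 55 of 31042 probe sets, for 48 genes: 37 probe sets for 33 genes of the large subunit and 18 probe sets for 15 genes of the small subunit. A further 36 probe sets carry several symbols that include a ribosomal protein, often together with pseudogenes, and stayed outside the rule, as did 2 probe sets with a pseudogene symbol and 14 of the kinases. Rplp1 and Rplp2 have no probe set with a single symbol, so the stalk is represented by Rplp0.

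A ribosome joins a small subunit, which reads the messenger RNA, to a large subunit, which forms the peptide bond and carries the exit tunnel for the new protein. Each subunit holds ribosomal RNA and a fixed set of proteins, made in matched amounts, and in vertebrates most of their messenger RNAs begin with a C followed by a run of pyrimidines, the 5′ TOP motif, through which the mTOR pathway controls their translation. In neurons, ribosomes lie in the cell body and also in dendrites, where local protein synthesis accompanies synaptic plasticity.

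RNA of the basolateral amygdala (BLA), which ties sensory cues to emotional value, was measured on rat oligonucleotide arrays. Sucrose rats were offered 30% sucrose, at most 4 mL per session in 2 daily sessions over 14 days, and control rats were offered water in the same sessions. Rats of both groups were male Long-Evans of 2 to 3 months and 225 to 250 g, kept 1 to a cage on unrestricted chow, and were killed in the morning of day 15. Each of the 12 arrays, 6 sucrose and 6 control, holds RNA of both BLAs of 2 rats of 1 group, so the pool and not the rat is the unit of replication. The values are linear ratios to the mean of the 6 control arrays, probe set by probe set. Such a ratio keeps no signal level, so that levels of different genes cannot be compared, a dim probe set cannot be recognised, and the presence of BLA markers cannot be checked. All values below are log2 ratios, differences are sucrose minus control with limma's standard error (SE), from 6 pools in each group. In tissue RNA, fewer cells of a type and less RNA per cell cannot be told apart.

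No ribosomal protein gene differed between sucrose and control rats past the threshold, and the differences were small. At an adjusted p of 0.05 limma called 0 of the 55 probe sets, against 0% of all 31042, the lowest adjusted p of the family being 0.561 and of all probe sets 0.231. At an unadjusted p under 0.05, 1 of 55 (1.82%) was higher, against 4.5% of all probe sets, and 0 were lower, against 3.07% of all. In 0 of 55 did the 6 sucrose pools lie wholly outside the range of the 6 control pools, against 0.425% of all probe sets. The share of ribosomal protein probe sets at any of these limits was thus no higher than the background. The median difference was 0.011 for the family and -0.0054 for all probe sets, with 39 members above 0 and 16 below. Of all 31042 probe sets 14178 lay above 0 and 16864 below. Members shifted together between arrays, as described below, so counts by sign are not counts of independent observations.

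The intervals around these differences were narrow. For 39 of the 55 probe sets (70.9%) the 95% interval lay wholly within 0.1 of 0 on the log2 scale, a ratio of 1.07, and this was so for 18.1% of all probe sets. The share was 83.3% for the 36 several-symbol ribosomal probe sets. With 1 probe set per gene it was 54.8% for mitochondrial ribosomal proteins and 44.4% for genes of ribosome assembly in the nucleolus. For 42 of 55 (76.4%) the difference itself was under 0.03 in size, against 41.9% of all. The plot of differences by subunit shows these intervals. The 16 members whose interval was not within 0.1 of 0 include 5 paralog probe sets. They also include Rpl30, a large-subunit protein, with a difference of 0.027 ± 0.040 and an interval from -0.060 to 0.11.

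**Figure D1:**
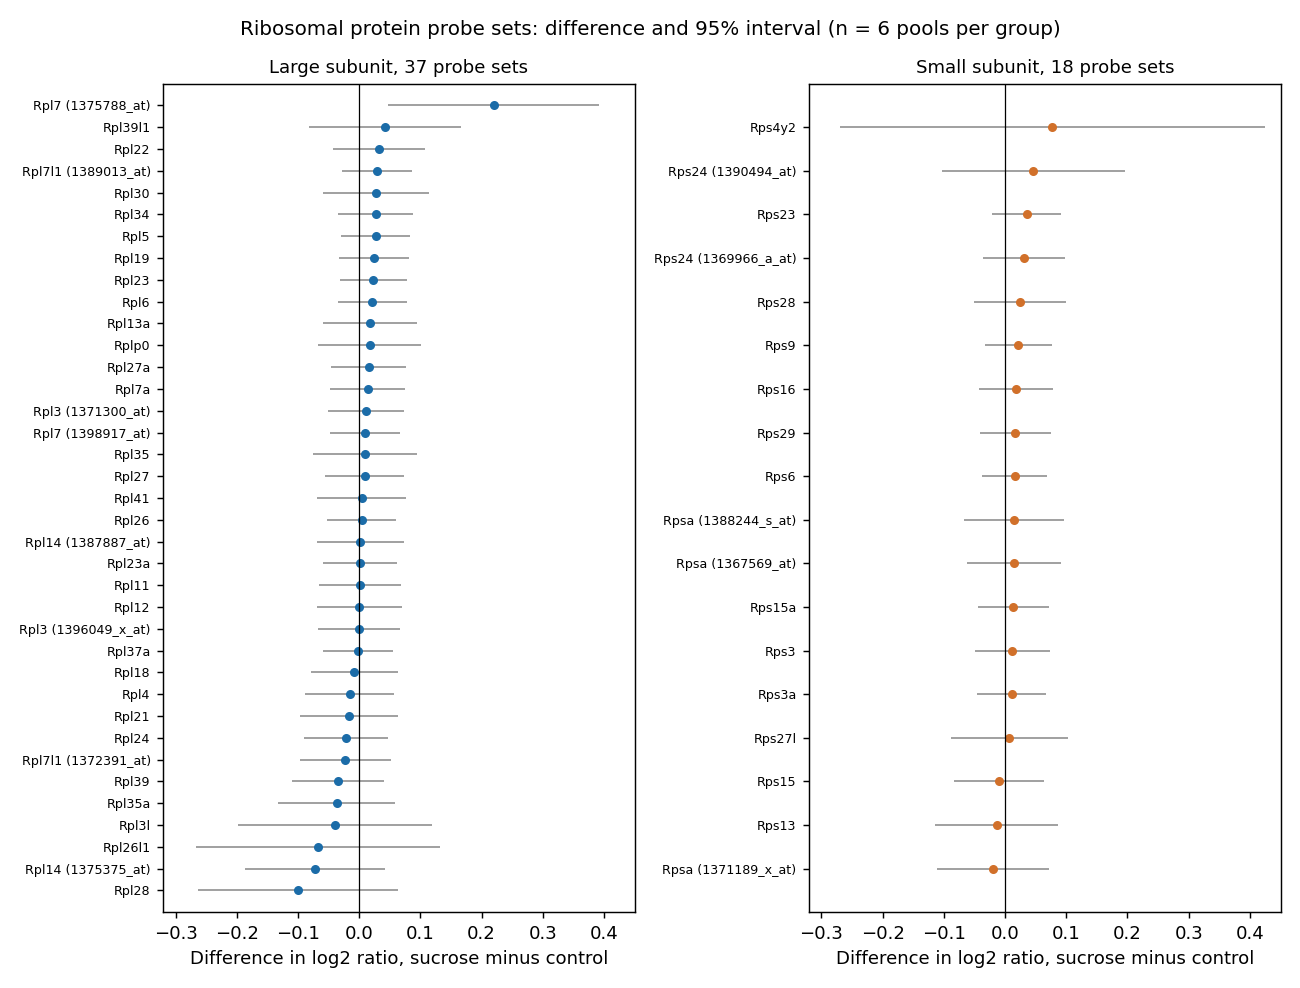
Difference in log2 ratio, sucrose minus control (points), with the 95% interval of the limma fit (lines) for 37 large-subunit and 18 small-subunit probe sets, with 6 pools in each group. Every interval but that of Rpl7 probe set 1375788_at, whose difference was 0.22, includes 0.

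Among large-subunit genes, 24 of 37 probe sets had a difference above 0 and 13 below, with a median of 0.0040. Rplp0 encodes the base of the stalk that recruits elongation factors. Its log2 ratio had a lowest, median and highest value of -0.062, 0.030 and 0.057 in sucrose pools and of -0.11, -0.0036 and 0.12 in control pools. The sucrose range lay within the control range, and the difference was 0.017 ± 0.039 (SE). Rpl12, which binds next to it, differed by 0.00040 ± 0.033.

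Rpl5 and Rpl11 join 5S ribosomal RNA in the particle that forms the central protuberance, and when free they bind the p53 regulator Mdm2. Rpl5 ranged from 0.0037 to 0.067 with a median of 0.022 in sucrose pools, and from -0.032 to 0.044 with a median of -0.0052 in control pools. All 6 sucrose pools lay above the control mean, but the ranges overlapped, and the difference was 0.027 ± 0.026. Rpl11 differed by 0.0013 ± 0.031, with an interval from -0.065 to 0.068. The manufacturer's 5S ribosomal RNA control probe set, which is no member of the family, ran from -0.057 to 0.095 in sucrose arrays and from -0.16 to 0.13 in control arrays.

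Proteins of the peptidyl transferase region and of the exit tunnel gave values close to 0. Rpl3, which reaches towards the catalytic centre, differed by 0.011 ± 0.029 at probe set 1371300_at and by -0.00054 ± 0.031 at 1396049_x_at. Rpl4, which lines the tunnel, differed by -0.016 ± 0.034. At the tunnel's end, Rpl23a, a docking site for factors that meet the new chain, differed by 0.0019 ± 0.028 and Rpl26 by 0.0039 ± 0.026. The 6 sucrose pools of Rpl26 lay between -0.0038 and 0.012, while control pools lay between -0.032 and 0.048. Rpl39, a very small protein of the tunnel wall, had a lowest, median and highest value of -0.076, -0.039 and 0.00012 in sucrose pools and of -0.096, 0.014 and 0.085 in control pools. The sucrose pools lay inside the control range, and the difference was -0.034 ± 0.035. Rpl41, the shortest ribosomal protein, differed by 0.0040 ± 0.034, and Rpl13a, known also as a translational silencer of inflammatory transcripts, by 0.018 ± 0.036.

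Rpl7 held the only probe set of the family with an unadjusted p under 0.05. Rpl7 is an RNA-binding protein of the large subunit. Probe set 1375788_at had a lowest, median and highest value of -0.018, 0.17 and 0.56 in sucrose pools and of -0.069, -0.016 and 0.075 in control pools. Sucrose arrays 1 and 3 were highest, at 0.56 and 0.36, sucrose arrays 5 and 6 lay inside the control range at 0.067 and -0.018, and 5 of 6 sucrose pools lay above the control mean. The difference was 0.22 ± 0.080, a ratio of 1.16, with an unadjusted p of 0.0160 and an adjusted p of 0.561 in limma, so it failed the correction. The other Rpl7 probe set, 1398917_at, ran from -0.025 to 0.037 in sucrose pools and from -0.034 to 0.051 in control pools. Its difference was 0.0099 ± 0.026 with an interval from -0.047 to 0.067, and the interval of 1375788_at was 0.048 to 0.39. Both probe sets are annotated to the same gene and did not give the same difference; which transcripts each detects was not tested here.

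Marker means of several cell types were also at an extreme in sucrose array 1. For pallial excitatory neurons the mean of 7 measured of 9 listed markers was 0.26 and 0.17 in sucrose arrays 1 and 3, and between -0.013 and 0.070 in the other sucrose arrays. It ran from -0.15 to 0.052 in control arrays. Of these 7 markers 4 had a difference between the groups above 0 and 3 below. For striatal and central amygdala neurons the mean of 8 of 8 markers was -0.32 and -0.16 in sucrose arrays 1 and 3, lay between -0.094 and 0.13 in sucrose arrays 2, 4, 5 and 6, and ran from -0.11 to 0.12 in control arrays. The astrocyte mean (0.35) and the choroid plexus mean (1.24) were highest in sucrose array 1 as well. Sucrose array 1 also had the highest mean of the manufacturer's 45 spike-in probe sets (0.058, against -0.042 to 0.018 in the other sucrose arrays and -0.046 to 0.040 in controls). Its 3-prime minus 5-prime difference of Gapdh and beta-actin was the lowest (-0.14). The part of these marker, spike-in and 3-prime measures in the Rpl7 value was not tested. Without sucrose array 1 the difference was 0.15, with the spike-in mean as a covariate it was 0.20, and with the 3-prime minus 5-prime difference as a covariate it was 0.19.

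The large-subunit probe sets with the lowest p in the other direction were those of Rpl14, Rpl28, Rpl39, Rpl35a and Rpl26l1. Rpl14 probe set 1375375_at ran from -0.17 to 0.049 in sucrose pools with a median of -0.093, and from -0.15 to 0.15 in control pools with a median of -0.0011. Control arrays 1 and 3, at 0.085 and 0.15, lay above every sucrose pool while the other controls overlapped with them, and the difference was -0.073 ± 0.053, while the other Rpl14 probe set, 1387887_at, gave 0.0020 ± 0.033. Rpl28 probe set 1397237_at ran from -0.26 to 0.039 in sucrose pools with a median of -0.11, and from -0.27 to 0.23 in control pools with a median of 0.00074. Its difference was -0.10 ± 0.076, and without control array 3, the lowest of the controls, it was -0.15 with an unadjusted limma p of 0.0438 and an adjusted p of 0.724. Rpl35a, a gene mutated in some human patients with Diamond-Blackfan anaemia, differed by -0.037 ± 0.044.

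By p, the large-subunit probe sets next to Rpl7 among those above 0 were Rpl7l1 probe set 1389013_at, Rpl5, Rpl34 and Rpl22, with differences from 0.027 to 0.032; by size Rpl39l1 came next, at 0.043. Rpl34 differed by 0.027 ± 0.028 and Rpl22, a protein known to be dispensable for general translation in mice, by 0.032 ± 0.035. Their ranges in sucrose pools were -0.015 to 0.038 for Rpl34 and -0.056 to 0.10 for Rpl22. In control pools they were -0.059 to 0.059 for Rpl34 and -0.063 to 0.069 for Rpl22.

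Among small-subunit genes, 15 of 18 probe sets had a difference above 0 and 3 below, with a median of 0.015. Over all 31042 probe sets 14178 lay above 0. The 18 probe sets are not independent, since they shifted together between arrays. Rps23, a protein of the decoding centre, had the lowest p. It ran from -0.0057 to 0.071 with a median of 0.041 in sucrose pools, and from -0.039 to 0.021 with a median of 0.0052 in control pools. Sucrose arrays 1 and 6 lay inside the control range and the others above it, with a difference of 0.036 ± 0.026 and an adjusted p of 0.811 in limma. Rps6, the ribosomal substrate of the S6 kinases that is often used as a readout of mTOR activity, ran from -0.017 to 0.041 in sucrose pools and from -0.015 to 0.013 in control pools. It had the smallest within-group spread of the family (SD 0.017), and its difference was 0.016 ± 0.025. Rps3, at the entry of the messenger RNA channel, differed by 0.012 ± 0.029.

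The small-subunit probe sets other than that of Rps4y2 all differed by less than 0.05 in size. Rps9, which binds ribosomal RNA early in assembly, differed by 0.022 ± 0.026, Rps28 by 0.024 ± 0.035 and Rps29 by 0.017 ± 0.027. Rps24, also a Diamond-Blackfan gene, differed by 0.031 ± 0.031 at probe set 1369966_a_at and by 0.046 ± 0.070 at 1390494_at. The 3 below 0 were Rps15, a protein near the decoding site, with -0.0095 ± 0.034, Rps13 with -0.014 ± 0.047, and 1 of the 3 probe sets of Rpsa. Rpsa, known also as the laminin receptor precursor, differed by 0.014 ± 0.036 at 1367569_at, by 0.014 ± 0.038 at 1388244_s_at and by -0.019 ± 0.042 at 1371189_x_at.

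**Figure D2:**
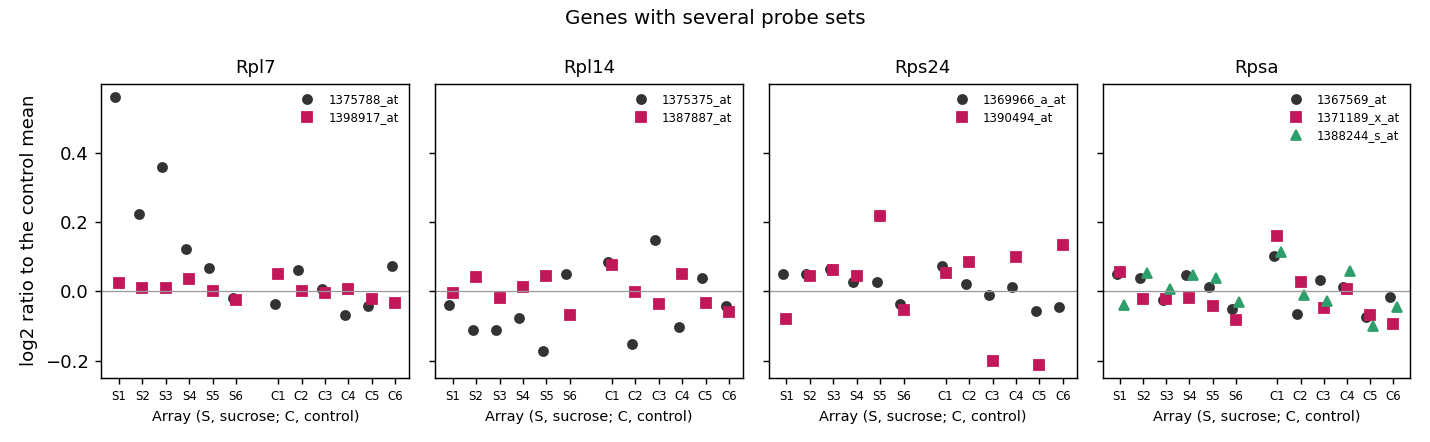
Log2 ratio to the control mean in each sucrose (S1 to S6) and control (C1 to C6) array for the probe sets of 4 genes, 1 symbol per probe set. In Rpl7 the probe set 1375788_at reaches 0.56 in sucrose array 1 where 1398917_at stays between -0.034 and 0.051 in all arrays, and in Rpsa the 3 probe sets share their high point in control array 1.

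The comparison of the subunits gave a small-subunit median difference of 0.015 and a large-subunit one of 0.0040, so that large minus small was -0.011. These are medians of probe set differences. Another measure, with medians taken within each array first, gave -0.0058 for sucrose minus control. In single arrays the large-subunit median minus the small-subunit median lay between -0.026 and 0.0069 in sucrose arrays (-0.0060 ± 0.012, mean ± SD) and between -0.0094 and 0.0077 in control arrays (-0.00018 ± 0.0067). The ranges overlapped, and the lowest value was that of sucrose array 4. Between arrays both subunits varied together and by more than they differed from each other. The large-subunit median was 0.0075 ± 0.019 in sucrose and -0.0015 ± 0.031 in control arrays, and the small-subunit median was 0.013 ± 0.029 in sucrose and -0.0013 ± 0.029 in control arrays. In each subunit the difference between groups was smaller than the SD among the pools of a group.

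**Figure D3:**
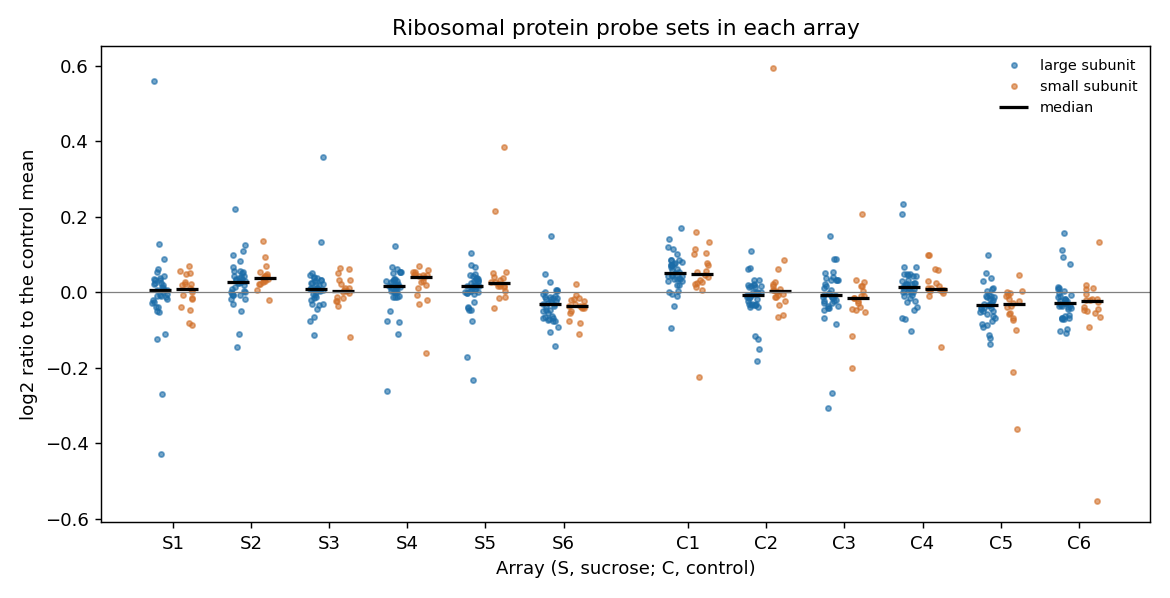
Log2 ratio to the control mean of the 37 large-subunit (blue) and 18 small-subunit (orange) probe sets in each sucrose (S) and control (C) array, with the median of each as a black bar. Both subunits are highest in control array 1 (medians 0.051 and 0.050) and lowest in sucrose array 6 and control arrays 5 and 6.

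The medians of these genes varied more between pools of 1 group than between the groups. In control array 1, 50 of the 55 probe sets lay above 0, and 35 of them (63.6%) had their highest value of the 6 controls there, while 15.1% of all probe sets did. In sucrose array 6, 7 of 55 lay above 0, and 35 (63.6%) had their lowest value of the 6 sucrose arrays there, against 17.8% of all probe sets. Control arrays 5 and 6 held the lowest control value of 20 and 18 probe sets. The size of these shifts was small, with family medians of -0.035 in sucrose array 6 and of 0.051 in control array 1, and the extremes belonged to different groups. The 36 several-symbol ribosomal probe sets, which the rule left out, had medians of -0.057 in sucrose array 6 and 0.072 in control array 1. Their median difference between the groups was -0.00050, and 0 of 36 had an unadjusted p under 0.05.

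The spike-in mean, added as bacterial and phage transcripts, was -0.042 in sucrose array 6 and 0.040 in control array 1, and -0.046 and -0.032 in control arrays 5 and 6. It was thus low and high in the same arrays as the ribosomal family, though sucrose array 1 and control array 2 had spike-in means of 0.058 and 0.040 beside family medians of 0.0065 and -0.0044. The median of all probe sets lay between -0.016 and 0.0032 in every array. The part of technical differences between arrays in this pattern was not tested. With the spike-in mean as a covariate 0 ribosomal probe sets were called, as without it, so this count says nothing about the array pattern. The family median difference was 0.0066 with the covariate and 0.011 without it. Mitochondrial ribosomal proteins, encoded by other genes, had their lowest median, -0.068, in sucrose array 6 as well, and a median of 0.0047 in control array 1.

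**Figure D4:**
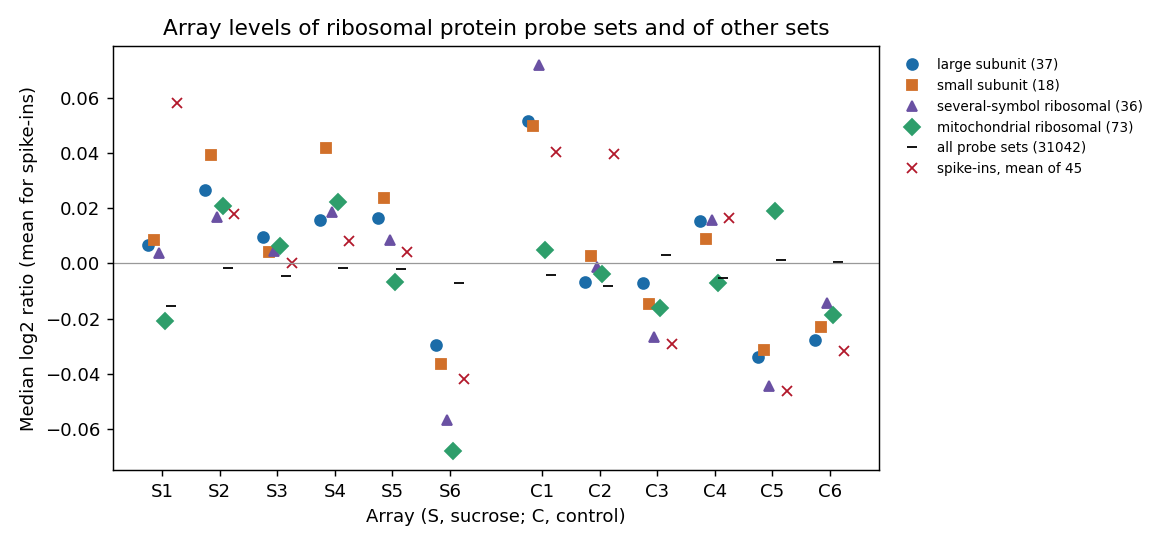
Median log2 ratio in each sucrose (S) and control (C) array for ribosomal, mitochondrial ribosomal and all probe sets, and the mean of the spike-ins (crosses). The subunits and the several-symbol ribosomal probe sets share their highest array, control array 1, and are low in sucrose array 6 and control array 5.

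Start sites of the member genes are given as a description, and their relation to the pattern between arrays was not tested. RefSeq promoters of assembly GRCr8 were found by gene identifier for 41 of the 48 genes. A C at the annotated start that opens a pyrimidine run of at least 5 bases, the form of the 5′ TOP motif, was present in 11 of 41 (26.8%), against 2.63% of 33469 promoters. A pyrimidine run of at least 8 bases within 20 bases of the start was present in 26 of 41 (63.4%), against 15.5% of all. The windows below run from 10 bases before the annotated start to 20 bases from it on, 5′ to 3′, with a run that opens with C at the start in capitals. They are shown for genes whose values are described here, the first 5 with such a run. Then follow Rps23, with a T at the annotated start inside a longer pyrimidine run, and the paralogs Rpl7l1 and Rps27l without one.

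Rplp0 (chr12:46718371-46718400, minus strand): caccgcacttCTCTCgccaggcgtcctcat
Rpl14 (chr8:129163610-129163639, plus strand): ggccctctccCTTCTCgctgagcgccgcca
Rpl28 (chr1:78083513-78083542, minus strand): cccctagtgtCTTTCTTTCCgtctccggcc
Rpl22 (chr5:168117951-168117980, plus strand): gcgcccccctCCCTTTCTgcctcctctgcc
Rps15 (chr7:10068096-10068125, minus strand): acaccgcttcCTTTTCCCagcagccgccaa
Rps23 (chr2:23814507-23814536, plus strand): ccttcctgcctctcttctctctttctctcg
Rpl7l1 (chr9:21695708-21695737, plus strand): cagatgcattgtgggaagcctttaactcgt
Rps27l (chr8:76443648-76443677, plus strand): ttcatttgtcattatttgtggtgtccagag

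The 12 probe sets of the 11 genes with such a start had a median difference of 0.0058, and the 35 probe sets of the other 30 genes one of 0.014. Annotated starts can lie some bases from the true start, so a gene without a run in capitals is one without these letters at this position. In the whole window of 250 bases before to 50 after the start, on either strand, GGGCGG was present in 61.0% of member promoters and 33.1% of all. CCGGAAG was present in 24.4% of member promoters and 8.75% of all, AAGATGG in 19.5% and 7.01%, and TATAAA in 14.6% and 14.2%. Overlaps between these motifs and with the pyrimidine runs were not removed.

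The ribosomal family varied little between pools of a group. The median within-group SD was 0.047, against 0.085 for all probe sets, and 47 of 55 (85.5%) lay below the median of all. Related sets had medians not far from that of the family. They were 0.045 for the 36 several-symbol ribosomal probe sets, 0.053 for mitochondrial ribosomal protein genes and 0.057 for nucleolar assembly genes. The last 2 sets hold 1 probe set per gene, that of highest variance. How this spread relates to signal level cannot be seen from ratios. The spread was uneven within the family. Paralogs, which are close copies or tissue-restricted relatives of core genes, had a median SD of 0.11 over 7 probe sets, and the other 48 had one of 0.044. The widest was Rps4y2, a relative of the small-subunit gene Rps4x, with values from -0.16 to 0.38 in sucrose pools and from -0.55 to 0.60 in control pools. Its difference of 0.077 ± 0.16 was the largest of the small subunit and lay well inside this spread.

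The remaining paralogs showed no common direction. Rpl26l1 ran from -0.43 to 0.13 in sucrose pools and from -0.18 to 0.21 in control pools, with a difference of -0.068 ± 0.093, beside 0.0039 for Rpl26. Rpl3l, known as the striated-muscle counterpart of Rpl3, ran from -0.27 to 0.11 in sucrose pools and from -0.31 to 0.11 in control pools, with a difference of -0.040 ± 0.074. Rpl39l1 differed by 0.043 ± 0.058, and Rps27l, a p53-responsive relative of Rps27, by 0.0069 ± 0.044. Rpl7l1 was the exception in spread at probe set 1389013_at, with an SD of 0.028 and a difference of 0.029 ± 0.027, while 1372391_at gave -0.022 ± 0.035. Over the 7 paralog probe sets 4 differences lay above 0 and 3 below.

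**Figure D5:**
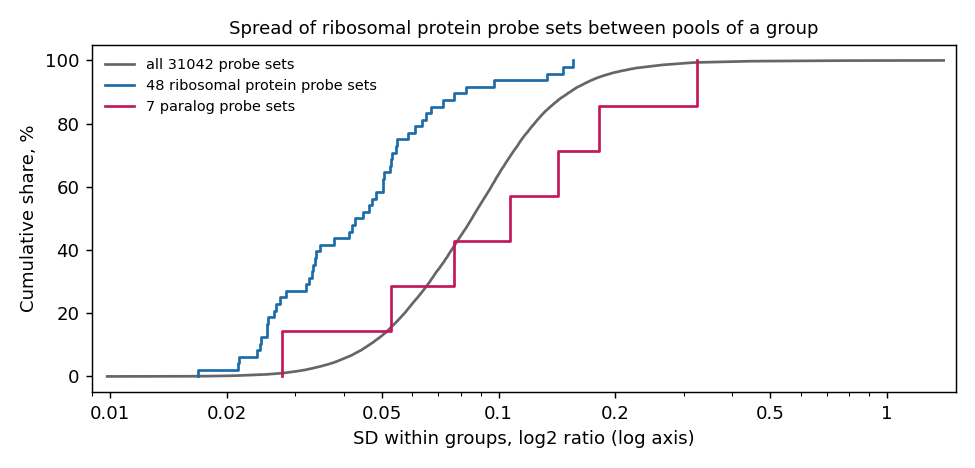
Cumulative share of probe sets (percent) by their SD within groups on the log2 scale (log axis), for all 31042 probe sets, the 48 ribosomal protein probe sets without paralogs and the 7 of paralogs. The 48 lie to the left of all probe sets with a median of 0.044 against 0.085, and the paralogs have a median of 0.11.

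Genes that build or regulate ribosomes were described from lists with 1 probe set per gene, that of highest variance. Among 45 measured nucleolar assembly genes 17 lay above 0 and 28 below, with a median of -0.0060 and 0 at an unadjusted p under 0.05 in either direction. Of 8 elongation factor genes 0 were at this limit, and their median was -0.0090. Taking 1 probe set per gene in the same way over all 14217 named genes, 5.11% were higher and 3.19% lower at this limit, and 0.478% did not overlap between the groups. Of 27 initiation factor genes 2 lay above 0 at this limit and 0 below, with a median of -0.0072. These were Eif3a (0.22 ± 0.095) and Eif3c (0.21 ± 0.094), subunits of the factor that loads the small subunit, both highest in sucrose array 1, at 0.46 and 0.61. For Eif3a 1 of 2 probe sets was higher and for Eif3c 2 of 2.

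Of 73 mitochondrial ribosomal protein genes 3 lay below 0 at an unadjusted p under 0.05 and 0 above, beside 3.19% and 5.11% of all genes, with a median of -0.0072. Mrpl4, a large-subunit protein, ran from -0.15 to -0.032 in sucrose pools and from -0.017 to 0.035 in control pools, without overlap, and differed by -0.072 ± 0.029. Mrps22 ran from -0.20 to -0.14 in sucrose pools and from -0.11 to 0.32 in control pools, also without overlap, and differed by -0.16 ± 0.063, control array 5 alone being at 0.32. Of all genes 0.478% did not overlap. Mrpl50 differed by -0.35 ± 0.13, and its control pools spread from -0.41 to 0.46. For Mrps22 and for Mrpl50 1 of 2 probe sets was lower.

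A list drawn up for the mTOR pathway names 24 genes. It is not limited to that pathway, since it also names Pdk1, a pyruvate dehydrogenase kinase, and the ERK-cascade kinases Rps6ka1, Rps6ka2 and Rps6ka3. Of 21 measured genes of this list 5 lay above 0 at an unadjusted p under 0.05 in limma and 0 below. Of all genes 5.11% were higher and 3.19% lower. The list median was 0.013, with 12 above 0, and the 4 genes of lowest p are described here. Eif4ebp2, the main brain repressor of the cap-binding factor Eif4e, ran from 0.17 to 0.69 in sucrose pools and from -0.17 to 0.18 in control pools. Its highest value was that of sucrose array 1, the next being 0.38 in sucrose array 2. The groups overlapped narrowly, and the difference was 0.33 ± 0.091 with an adjusted p of 0.422 in limma. Rps6kb1, the S6 kinase that phosphorylates Rps6, differed by 0.13 ± 0.043, with both of its probe sets higher. Its range was 0.065 to 0.24 in sucrose pools and -0.11 to 0.12 in control pools. Sesn2, a stress-induced brake on mTOR complex 1, differed by 0.15 ± 0.043, and Deptor, an mTOR-binding inhibitor, by 0.43 ± 0.18, each with 1 of 2 probe sets higher. None of these 21 genes passed at an adjusted p of 0.05.

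Marker means of cell types a BLA sample could hold varied between arrays, some more and some less than the ribosomal median. Astrocyte markers, 8 of 8 measured, had means from 0.091 to 0.35 in sucrose arrays and from -0.21 to 0.069 in control arrays, without overlap. Their medians did overlap, with 0.034 to 0.25 in sucrose arrays and -0.22 to 0.062 in control arrays. Of these astrocyte markers 7 had a difference above 0 and 1 below. All 10 measured oligodendrocyte and all 7 choroid plexus markers lay above 0, though the ranges of their means overlapped. All 8 striatal and central amygdala markers lay below 0. Oligodendrocyte markers, 10 of 11 measured, ran from -0.17 to 0.46 in sucrose arrays and from -0.11 to 0.095 in control arrays, and choroid plexus markers, 7 of 7 measured, from -0.20 to 1.24 in sucrose arrays and from -0.17 to 0.21 in control arrays. Microglia markers, 9 of 9 measured, ran from -0.042 to 0.0070 in sucrose arrays and from -0.097 to 0.059 in control arrays. GABAergic markers, 6 of 6, ran from -0.023 to 0.037 in sucrose arrays and from -0.069 to 0.076 in control arrays. Of the microglia markers 5 had a difference above 0 and 4 below, and of the GABAergic markers 3 and 3. Endothelial markers, 5 of 6, ran from -0.045 to 0.065 in sucrose arrays and from -0.12 to 0.11 in control arrays, with 3 differences above 0 and 2 below. Blood markers, 2 of 5, ran from -0.077 to 0.11 in sucrose arrays and from -0.13 to 0.071 in control arrays, with 2 differences above 0 and 0 below. Their part in the ribosomal values was not tested. The authors' deposited table of 145 probe sets contains 0 of the 55 ribosomal protein probe sets and 0 of the 36 with several symbols.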

How the data were processed

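The value table holds 31099 probe sets of 12 arrays as linear ratios. The authors deposited each ratio over the mean of the 6 control arrays, as the values show, after RMA, per the submitters' processing notes, which give no version. The authors' deposited table of 145 probe sets gives p-values and mean ratios with their SE and SD, per the file headers, and was used here only for membership. Groups come from the sample titles, since the treatment text of the controls repeats that of the sucrose samples. The 57 manufacturer control probe sets were kept out of tests. Log2 ratios were fitted over 31042 probe sets with limma 3.58.1 in R 4.3.3 (lmFit, eBayes without variance trend, group only, two-sided, Benjamini-Hochberg over all), and the procedure was tested on simulated data. Precision is limited by the number of arrays. Genes were named from probe sets with 1 symbol, and 46 of 48 matched RefSeq by gene identifier. The members and lists were chosen with earlier results of these data known, so no score over them was tested. Named are the 5 probe sets of lowest p per direction and subunit, genes with 3 or more probe sets, a list chosen by role, paralogs, and up to 4 genes per list at an unadjusted p under 0.05. Rpl12, Rpl30, the paralog Rpl39l1 and Rpl14 probe set 1387887_at are described as well. They were not among the named probe sets counted under the alternatives. A replicate block, other normalizations, covariates, probe set choices and leaving out each array were tried as alternatives.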

Additional observations from a re-analysis of the deposited data

Results flagged for a closer look

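A Dixon test at 95% for 1 extreme pool was run on 116 sets of 6 values, and 5 of them held an extreme pool, where chance gives about 5.8. Sucrose array 6 was low for Rpl11 (-0.071, the next being 0.00026), for Rpl34 (-0.015, the next being 0.030) and for the large-subunit median (-0.030, the next being 0.0065). Rps4y2 was high in sucrose array 5 (0.38, the next being 0.043). Rpl3l was low in control array 3 (-0.31, the next being -0.039).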

How the results depend on the processing

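Under each of 25 alternatives 0 members were called and 1 was higher at an unadjusted p under 0.05. In the 20 alternatives that keep single probe sets the difference of Rpl7 probe set 1375788_at ran from 0.15 to 0.27 and its adjusted limma p from 0.462 to 0.803. With 1 array left out in turn the count lower at an unadjusted p under 0.05 was 0 to 1, the 1 being Rpl28 without control array 3. The family median then ran from 0.0031 to 0.021, the large-subunit median from -0.0044 to 0.018, the small-subunit median from 0.011 to 0.025 and large minus small from -0.016 to -0.0049. Under the other 13 alternatives, of which adding several-symbol probe sets and leaving out paralogs were chosen after seeing the data, the family median ran from 0.0066 to 0.015 and large minus small from -0.013 to -0.0085. Of 740 values of 37 named probe sets 48 changed sign, none of them called, and 0 moved by 1 within-group SD or more. That last count was largely fixed in advance. Leaving out 1 of 6 pools cannot move a group mean by 1 such SD, and some alternatives, such as the replicate block, leave the difference unchanged. Replicate numbers are shared by the groups but name pools of different rats: same-numbered arrays correlated between -0.15 and 0.19 in their deviations over all probe sets, and 1 of 6 sucrose arrays was closest to its own number. With the replicate block 0 members were called. The family median of 0.011 could not change, since each number holds 1 array of each group. A filter on dim probe sets was not run, since ratios keep no signal level.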
